A study of Mus musculus with 6 samples.

Results

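The Schlafen genes of the mouse are a family of 8 listed here, Slfn1, Slfn2, Slfn3, Slfn4, Slfn5, Slfn8, Slfn9 and the pseudogene Slfn10-ps, and 7 of the 8 had a row among the 16217 genes of the table. Slfn10-ps had no row. The members were chosen by gene symbol with their FPKM values in both groups of this table known, so those values are given as a description, with no test. In brief, Slfn4 stood in shERO1A cells at 25.5% of the shNC level, Slfn8 stood at 1.30 times it with a narrow gap between the nearest libraries, the most abundant members, Slfn2 and Slfn9, stood at 0.986 and 0.993 of the shNC mean, and Slfn1, Slfn3 and Slfn5 had means under 1 FPKM, a read count scaled for gene length and library size.

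RNA was sequenced from cells labelled Hepa1-6, a mouse hepatoma line. In 3 libraries the cells stably carried a lentiviral short hairpin RNA against Ero1a (shERO1A, with libraries KD1, KD2 and KD3). Another 3 libraries came from cells with the control hairpin shNC (NC1, NC2 and NC3). The design text describes lentivirus given with polybrene and selection with puromycin until lines were stable. Ero1a makes the enzyme that passes oxidising equivalents to disulfide isomerases. The labels name no separate cultures, clones or hairpin sequences, so p-values rest on the scatter of these libraries alone, whether biological or technical, and loss of Ero1a and any other way in which the selected lines differ cannot be told apart. Because bulk RNA was measured, fewer cells that express a gene and less RNA per cell cannot be told apart either.

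Schlafen proteins take their name from a German word for sleep, after the growth arrest that Slfn1 imposes on mouse thymocytes. They share a core fold with nuclease activity towards transfer and ribosomal RNA in several members, the long members carry a helicase-like part as well, and many are induced by type I interferon and by ligands of Toll-like receptors. In mice they are best known from T cells and macrophages: Slfn2 binds transfer RNA and protects it from cleavage in activated T cells, Slfn4 rises as macrophages are activated and marks suppressive myeloid cells of the inflamed stomach, and Slfn8 and Slfn9 are long members related to human SLFN11 and SLFN13.

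The members lie side by side on chromosome 11 in the order Slfn5, Slfn9, Slfn8, Slfn10-ps, Slfn2, Slfn1, Slfn4 and Slfn3. The 250 bases before the annotated start are printed for the 4 members above 1 FPKM, to set those whose libraries did not overlap between the groups (Slfn4 and Slfn8) beside those whose libraries did (Slfn2 and Slfn9). The sequences are from RefSeq on GRCm38.p6, 5′ to 3′ on the strand of the gene, and capitals mark the core of an interferon-stimulated response element. For Slfn8, the first of 2 listed start sites is used.
Slfn4, chr11:83174936-83175185, strand +: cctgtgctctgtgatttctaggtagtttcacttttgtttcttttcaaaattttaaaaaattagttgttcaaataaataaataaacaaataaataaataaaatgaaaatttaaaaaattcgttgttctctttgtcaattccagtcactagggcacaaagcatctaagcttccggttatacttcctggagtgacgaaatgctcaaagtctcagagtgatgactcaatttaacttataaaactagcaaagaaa
Slfn8, chr11:83020811-83021060, strand -: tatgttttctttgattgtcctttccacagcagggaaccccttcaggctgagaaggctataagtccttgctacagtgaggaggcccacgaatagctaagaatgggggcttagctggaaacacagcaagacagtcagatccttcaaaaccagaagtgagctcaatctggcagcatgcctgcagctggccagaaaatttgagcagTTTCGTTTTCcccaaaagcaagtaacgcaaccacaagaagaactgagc
Slfn2, chr11:83064862-83065111, strand +: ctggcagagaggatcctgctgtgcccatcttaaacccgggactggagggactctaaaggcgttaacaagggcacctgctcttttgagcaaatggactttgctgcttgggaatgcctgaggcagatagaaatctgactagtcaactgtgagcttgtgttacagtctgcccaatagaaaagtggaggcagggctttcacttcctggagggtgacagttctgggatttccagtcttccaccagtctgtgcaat
Slfn9, chr11:82991831-82992080, strand -: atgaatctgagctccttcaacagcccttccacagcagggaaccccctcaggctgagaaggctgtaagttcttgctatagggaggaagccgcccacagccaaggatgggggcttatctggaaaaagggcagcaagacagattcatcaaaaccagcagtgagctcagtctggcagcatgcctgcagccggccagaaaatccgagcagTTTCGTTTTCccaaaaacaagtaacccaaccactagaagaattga

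The element core was searched on both strands as GAAA, then 2 bases of any kind, then GAAA. It was present at positions -48 to -39 relative to the start of Slfn8 and at -45 to -36 of Slfn9, in both as TTTCGTTTTC, and at -155 to -146 of Slfn5 as GAAAAAGAAA. The windows of Slfn1, Slfn2, Slfn3 and Slfn4 held no match to these letters. Of 32851 promoter windows of this length in the reference table, 2.98% held a match. The STAT dimer site TTCNNNGAA, found in 7.02% of the windows, and the GLI site GACCACCCA, found in 0.225%, had no match in any window of the 7 members on either strand, and no motif contains the letters of another. Over the same 250 bases, Slfn8 and Slfn9 were identical at 210 of 262 alignment columns (80.2%), and no other pair of members exceeded 53.4%. Slfn8 and Slfn9 thus had the most alike upstream sequence of any pair and the same letters at the element core.

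Reads of related genes can be hard to assign in counting, so the overlap of the transcripts was measured. Of the 100-base stretches of the GENCODE M21 transcripts (GRCm38), 0.271% for Slfn4, 0.128% for Slfn2, 3.38% for Slfn8, 3.71% for Slfn9 and 2.92% for Slfn3 also occurred in a transcript of another gene, and 0 of 1765 for Slfn1. With 50-base stretches the shares were 11.3% for Slfn4, 4.27% for Slfn2, 14.6% for Slfn8, 11.9% for Slfn9 and 16.0% for Slfn3. Slfn8 and Slfn9 shared most with Slfn10-ps, and Slfn4 at 50 bases with Slfn3. For Slfn5, 6.40% of the 100-base stretches were shared, mainly with its antisense gene Slfn5os. These transcripts may differ from the gene models that were counted. The FPKM values imply 1816 bases for Slfn3 and 10875 for Slfn9, against 3386 and 5963 distinct 100-base stretches here. Neither read length nor strand setting is stated, so values of Slfn8, Slfn9, Slfn3, Slfn4 and Slfn5 hold with this uncertainty.

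The 6 libraries had 38290505 to 39646829 reads on the genes of the table, so depth was alike. The knockdown itself was seen in each library: Ero1a stood at 15.0, 16.0 and 15.7 FPKM in KD1, KD2 and KD3, against 37.8, 39.6 and 38.4 FPKM in NC1, NC2 and NC3. KD3 stood apart. Over the 10296 genes that averaged 1 FPKM or more, its root mean square distance on the log2(FPKM + 1) scale was 0.252 to KD1 and 0.231 to KD2, while KD1 and KD2 were 0.122 apart and the shNC libraries 0.117 to 0.122. For some results the value without KD3 is therefore given as well. Of 16 markers of myeloid cells, 9 had a row, and only Cd68 and S100a9 reached a mean of 1 FPKM. The 9 summed to 5.44 to 6.16 FPKM in shERO1A and 5.66 to 6.51 FPKM in shNC, and Adgre1, Lyz2 and Tyrobp had no row; their part in the Schlafen values was not tested. Of 16 lymphocyte markers 4 had a row, and these summed to at most 0.216 FPKM in shERO1A and 0.228 FPKM in shNC, with no row for Cd3e, Cd4 or Cd8a. Of 18 hepatocyte markers 8 had a row and 6 were tested; Apoh was called higher and Hnf4a and Trf lower by limma (beside 9.48% and 8.23% of all genes tested), and 3 did not pass. The call of Apoh was lost without NC2 or NC3, and that of Trf without a filter and without any 1 library other than KD3. Hnf4a averaged 33.2 ± 0.855 FPKM in shERO1A and 41.1 ± 1.12 FPKM in shNC. Afp averaged 2.22 ± 0.871 FPKM in shERO1A and 3.105 ± 0.0503 FPKM in shNC. Alb, Ttr and Apoa1 had no row, so these markers do not fully bear out the hepatoma label. The identity of the line was not tested.

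Slfn4, of the intermediate-length group, showed the largest difference between the groups among the members. Its level was 1.51, 1.39 and 0.556 FPKM in KD1, KD2 and KD3, against 4.72, 4.63 and 4.17 FPKM in NC1, NC2 and NC3. All 3 shERO1A libraries lay below all 3 shNC libraries, as they did for 18.5% of all genes tested, and KD3 was the lowest. These values rest on 231, 213 and 88 reads in shERO1A and on 732, 708 and 642 reads in shNC. The mean was 1.15 ± 0.518 FPKM in shERO1A and 4.51 ± 0.292 FPKM in shNC (SD, n = 3 each), which is 25.5% of the shNC level. The log2 difference was -1.39 (SE 0.17) on the log2(FPKM + 1) scale, which understates the change of low genes. Without KD3 the log2 difference was -1.17 and the ratio of the means 0.321.

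**Figure D1:**
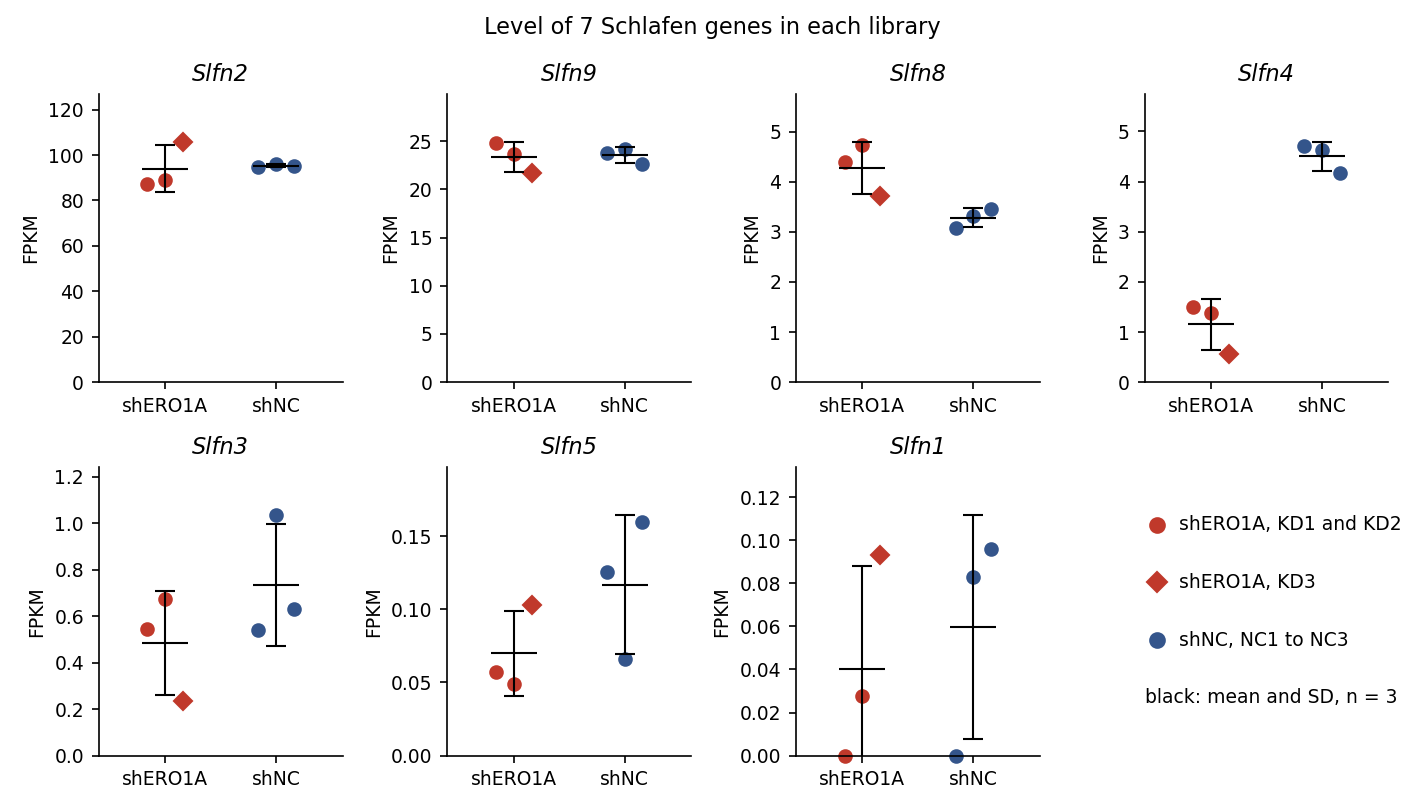
Level of each of the 7 Schlafen genes with a row, in FPKM on the vertical axis (each panel has its own scale from 0), in the 3 shERO1A libraries (red, KD3 as a diamond) and the 3 shNC libraries (blue), with black bars for the mean and SD. The groups are apart for Slfn4 (shERO1A 0.556 to 1.51, shNC 4.17 to 4.72 FPKM) and Slfn8 (shERO1A 3.71 to 4.74, shNC 3.08 to 3.45 FPKM) and overlap in the other 5 panels; the lower SD bar of Slfn1 in shERO1A runs past 0.

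Slfn3, the other member of intermediate length here, is known from intestinal epithelium and from regulatory T cells. It was measured at 0.545, 0.673 and 0.236 FPKM in KD1, KD2 and KD3, against 0.539, 1.04 and 0.629 FPKM in NC1, NC2 and NC3. The groups overlapped, and KD3 was again the lowest library. The mean was 0.485 ± 0.225 FPKM in shERO1A and 0.734 ± 0.265 FPKM in shNC, with 102 reads in shERO1A and 154 reads in shNC over the 3 libraries of each. The ratio of the means was 0.660, and 0.830 without KD3. Set within each library, Slfn4 was 2.76, 2.06 and 2.35 times Slfn3 in KD1, KD2 and KD3, and 8.76, 4.47 and 6.63 times Slfn3 in NC1, NC2 and NC3. This ratio did not overlap between the groups. As Slfn4 was listed with its values known, this is a description only. The share of such ratios over all genes was not computed, and Slfn3 had only 17 to 72 reads per library.

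Slfn8, a long member, was the only one of the 7 whose shERO1A libraries all lay above the shNC libraries, as was the case for 21.5% of all genes tested. It stood at 4.39, 4.74 and 3.71 FPKM in KD1, KD2 and KD3, against 3.08, 3.32 and 3.45 FPKM in NC1, NC2 and NC3. The gap between KD3 and NC3 was small. The mean was 4.28 ± 0.522 FPKM in shERO1A and 3.28 ± 0.188 FPKM in shNC (SD, n = 3 each), a ratio of 1.30, and the log2 difference was 0.30 (SE 0.09). Without KD3 the ratio was 1.39.

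Slfn9, the long member next to Slfn8, lay close to shNC. Its level was 24.8, 23.6 and 21.7 FPKM in KD1, KD2 and KD3, against 23.8, 24.2 and 22.6 FPKM in NC1, NC2 and NC3. The groups overlapped, with KD1 the highest and KD3 the lowest of the 6 libraries. The mean was 23.4 ± 1.58 FPKM in shERO1A and 23.5 ± 0.830 FPKM in shNC, and the ratio was 0.993, or 1.03 without KD3. Within a library, Slfn8 was 0.177, 0.201 and 0.171 times Slfn9 in KD1, KD2 and KD3, against 0.130, 0.137 and 0.153 times in NC1, NC2 and NC3. The ratio of these neighbours did not overlap between the groups either, though KD3 (0.171) lay near NC3 (0.153). It is likewise a description only, since Slfn8 was listed with its values known and no share over all genes was computed.

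Slfn2, a short member, was the most abundant per length. It stood at 87.2, 88.9 and 105.9 FPKM in KD1, KD2 and KD3, against 94.6, 96.2 and 95.3 FPKM in NC1, NC2 and NC3. KD1 and KD2 lay below every shNC library and KD3 above them, so the mean of 94.0 ± 10.3 FPKM in shERO1A, against 95.4 ± 0.811 FPKM in shNC, hides a spread among the shERO1A libraries that is wider than that in shNC. The ratio was 0.986 over all libraries and 0.924 without KD3. In KD3, Slfn2 was thus the highest of the 6 libraries, while Slfn3, Slfn4 and Slfn9 were the lowest.

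The remaining members were close to the limit of what these libraries can measure. Slfn1, the short growth regulator of thymocytes, had 0, 2 and 7 reads in KD1, KD2 and KD3, against 0, 6 and 7 reads in NC1, NC2 and NC3. A count of 0 allows up to 3 reads, or 0.0409 FPKM, for this gene, counting error only. Slfn5, a long member whose human counterpart is interferon-induced, had 14, 12 and 26 reads in KD1, KD2 and KD3, against 31, 16 and 39 reads in NC1, NC2 and NC3. Its mean was 0.0699 ± 0.0291 FPKM in shERO1A and 0.117 ± 0.0474 FPKM in shNC. Over the 3 libraries of each group, Slfn5 had 52 reads in shERO1A and 86 reads in shNC, and the ratio of its means was 0.598. In both genes the groups overlapped, and a difference was not tested.

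The order of the members depended on whether reads or FPKM are read. Slfn9 had the most reads, 29570 in shERO1A and 29597 in shNC, but the FPKM values imply a length of 10875 bases for it and of 1664 bases for Slfn2, so Slfn2 led in FPKM. Per length, the order in shNC was Slfn2, Slfn9, Slfn4, Slfn8, Slfn3, Slfn5 and Slfn1, and in shERO1A Slfn8 stood above Slfn4. Slfn4 was 0.343, 0.293 and 0.150 times Slfn8 in KD1, KD2 and KD3, and 1.53, 1.39 and 1.21 times Slfn8 in NC1, NC2 and NC3. Slfn5 and Slfn1, neighbours at the low end, overlapped in their values within each group. The sum over the 7 genes was 118.5, 119.4 and 132.3 FPKM in KD1, KD2 and KD3, against 126.8, 129.5 and 126.5 FPKM in NC1, NC2 and NC3. Slfn2 made up 73.6% to 80.1% of the sum in shERO1A and 74.3% to 75.4% in shNC, while Slfn4 made up 0.420% to 1.27% in shERO1A and 3.30% to 3.72% in shNC.

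A fit over all genes, in which log2(FPKM + 1) was compared with limma and a gene was called at an adjusted p under 0.05, was used for the genes around the family. Over the 10296 genes in it, 9.48% were called higher and 8.23% lower in shERO1A. Of the 7 Schlafen genes, 4 averaged 1 FPKM or more and were in the fit; since they were listed with this comparison known, their calls are not read, and only the log2 differences are given. Over 11 alternatives in scaling, filter, pseudocount, weighting and libraries, that of Slfn4 lay between -2.10 and -1.17 and that of Slfn8 between 0.24 and 0.38. Slfn2 and Slfn9 changed sign with the library left out, and the log2 difference of Slfn2 was -0.11 without KD3.

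**Figure D2:**
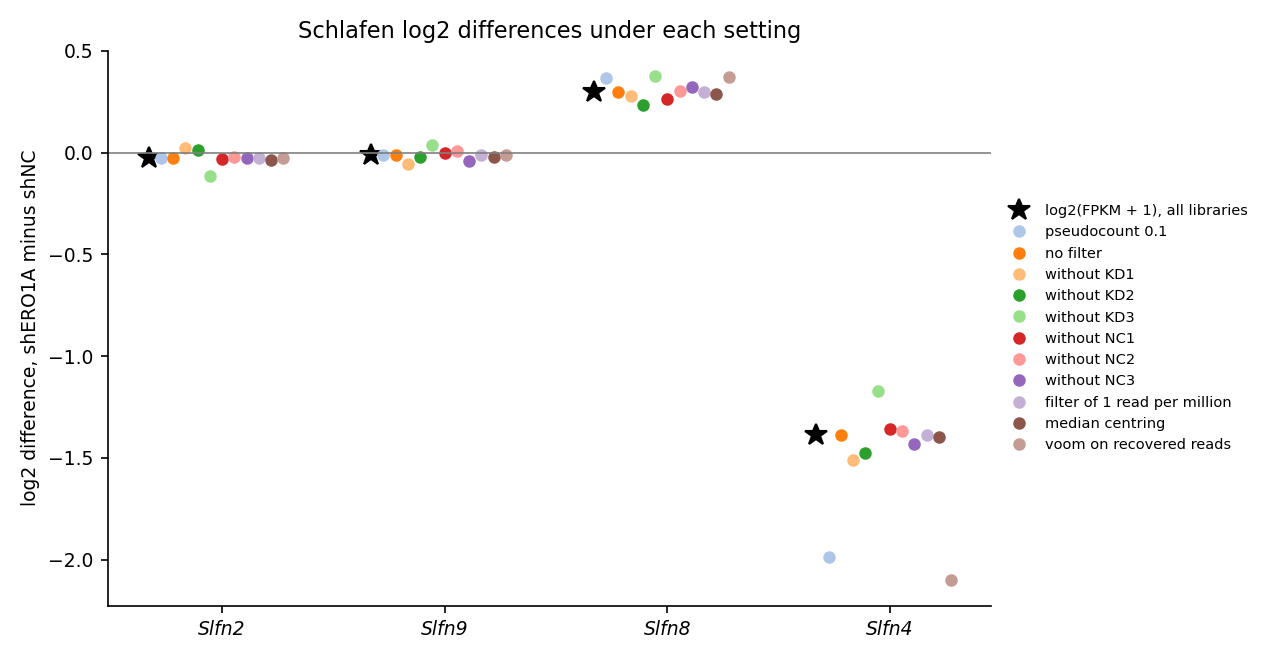
Log2 difference, shERO1A minus shNC, on the vertical axis for the 4 Schlafen genes with means of 1 FPKM or more, over all libraries (black star) and under each of 11 alternatives (coloured points). Slfn4 lies between -2.10 and -1.17 and Slfn8 between 0.24 and 0.38, while Slfn2 and Slfn9 fall on both sides of 0.

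The genes around the cluster were taken by position alone. Slfn4 was listed with its values known, so its larger difference beside them is a description only. Of the 10 protein-coding genes on each side in the RefSeq order, 14 had a row and 10 were tested, of which 1 was called higher and 1 lower (beside 9.48% and 8.23% of all genes tested). Ccl5, a chemokine gene beyond the Slfn3 end, was higher, at 386 ± 42.9 FPKM in shERO1A and 230.1 ± 6.40 FPKM in shNC (limma adjusted p = 0.000804). It is also counted among the interferon-stimulated genes below. Mmp28, a metalloproteinase gene on the same side, was lower, at 8.60 ± 0.838 FPKM in shERO1A and 11.4 ± 1.08 FPKM in shNC (limma adjusted p = 0.0236, lost without NC2 or NC3, where it reached 0.0904). Nle1, a ribosome assembly gene and the nearest tested gene on the Slfn5 side, was not called and averaged 10.5 ± 0.822 FPKM in shERO1A and 10.2 ± 0.308 FPKM in shNC (limma adjusted p = 0.674). The median log2 difference of the 10 was -0.06, against 0.01 over all genes tested.

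**Figure D3:**
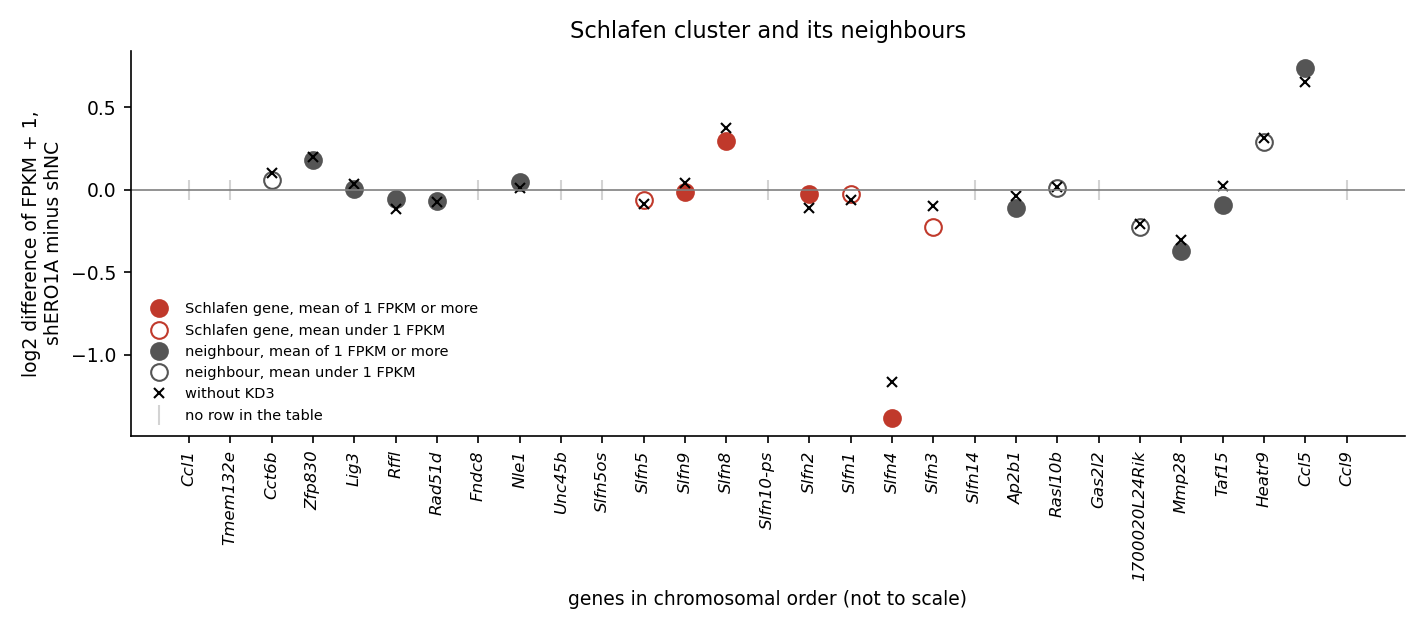
Log2 difference of FPKM + 1, shERO1A minus shNC, on the vertical axis for the Schlafen genes (red) and neighbouring protein-coding genes (grey; 1 of them is not drawn) in chromosomal order on the horizontal axis; open circles are genes with a mean under 1 FPKM, crosses leave out KD3 and ticks are genes with no row. Slfn4, listed with its values known, is the lowest point at -1.39, and Ccl5 at 0.74 the highest.

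Among the genes that carry the interferon signal, more were lower than higher. Of 28 receptors, kinases, STATs and interferon regulatory factors with a row, 22 were tested, 1 was higher (4.55%, beside 9.48% of all genes tested), 4 were lower (18.2%, beside 8.23%) and 17 did not pass, with a median log2 difference of -0.02. Irf9 and Stat2, which act at the interferon-stimulated response element, were not called: Irf9 averaged 35.0 ± 1.14 FPKM in shERO1A and 33.8 ± 0.426 FPKM in shNC (limma adjusted p = 0.485), and Stat2 37.8 ± 12.2 FPKM in shERO1A and 43.3 ± 0.448 FPKM in shNC (limma adjusted p = 0.467). Stat2 stood at 46.6, 43.0 and 23.9 FPKM in KD1, KD2 and KD3, against 43.1, 43.8 and 43.0 FPKM in NC1, NC2 and NC3, so KD3 was the lowest. The ratio of the Stat2 means was 0.873 with KD3 and 1.03 without it. Irf7 averaged 182 ± 15.5 FPKM in shERO1A and 156.1 ± 4.22 FPKM in shNC (limma adjusted p = 0.0555, and 0.00868 without KD3), and Irf1 16.1 ± 0.565 FPKM in shERO1A and 17.1 ± 0.869 FPKM in shNC (limma adjusted p = 0.337).

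The 3 largest of the 4 falls in this list were in receptor chains. The interferon gamma receptor genes Ifngr2 and Ifngr1 were at 0.703 and 0.801 of shNC (limma adjusted p = 0.00134 and 0.0186), and Ifnlr1, a chain of the interferon lambda receptor, at 0.678 (limma adjusted p = 0.0452). The call of Ifnlr1 was lost with a pseudocount of 0.1, without a filter, and without KD2 or any 1 shNC library (limma adjusted p up to 0.139), and that of Ifngr1 without KD2, NC1 or NC2. Without KD2, NC1 or NC2 only 1 gene of the list was called lower, and without NC3 2 were. Over all 10296 genes tested, 577, 484, 473 and 460 were lower without KD2, NC1, NC2 and NC3.

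Many interferon-stimulated genes outside the family were higher in shERO1A cells. Of 52 tested, 26 were higher (against 9.48% of all genes tested), 3 were lower (5.77%, beside 8.23%) and 23 did not pass. The median log2 difference was 0.21. Without any 1 shNC library 19 were higher, beside 482 to 492 of all 10296 genes tested. Without KD3 31 were higher, beside 1521 of all genes. Besides Ccl5, the largest rises were in Usp18, which restrains the interferon receptor, at 206 ± 18.0 FPKM in shERO1A and 131 ± 1.74 FPKM in shNC (limma adjusted p = 0.000549), and in the antiviral gene Ifit3b, at 106 ± 1.83 FPKM in shERO1A and 68.2 ± 1.99 FPKM in shNC (limma adjusted p = 8.77e-05). Lgals9, which encodes galectin 9, was at 0.812 of shNC (limma adjusted p = 0.00561). Oas3 and Pml were at 0.782 and 0.778, with calls that were lost without a filter and without KD2 or any 1 shNC library. Whether the Schlafen genes differ from this list was not tested.

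**Figure D4:**
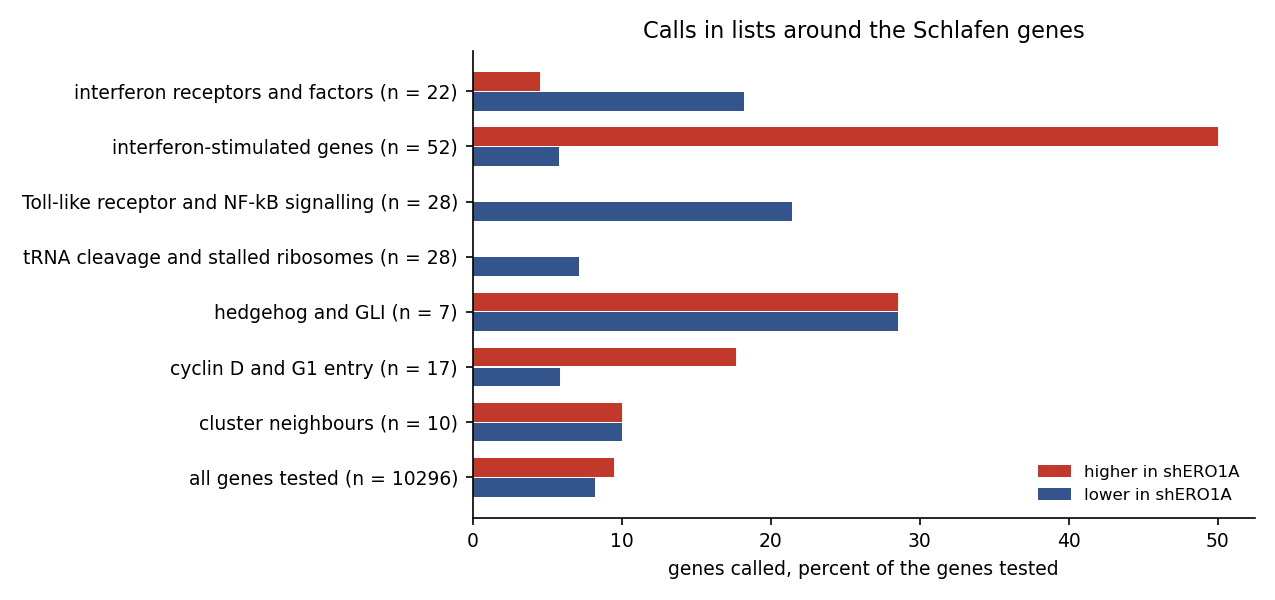
Percent of the tested genes of each list, on the horizontal axis, that limma called higher (red) or lower (blue) in shERO1A than in shNC, with all 10296 genes tested in the bottom row. Of the 52 interferon-stimulated genes 26 are higher, against 9.48% of all genes, and Toll-like receptor and of the Toll-like receptor and NF-kB genes 21.4% are lower, against 8.23%.

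Toll-like receptor and NF-kB signalling, which induces Schlafen genes in mouse macrophages, had more falls than rises. Of 28 tested genes 6 were lower (21.4%, against 8.23% of all genes tested), 0 were higher and 22 did not pass in limma. At an unadjusted p under 0.05, 3 were higher, and with voom 0 were called higher. Ikbke, an IκB kinase-related gene, averaged 6.11 ± 0.619 FPKM in shERO1A and 10.01 ± 0.727 FPKM in shNC (limma adjusted p = 0.0018). Cd14, the co-receptor for lipopolysaccharide, averaged 22.3 ± 0.891 FPKM in shERO1A and 29.7 ± 1.93 FPKM in shNC (limma adjusted p = 0.00315), and Irak3, an inhibitory kinase-like protein of the pathway, 2.60 ± 0.0404 FPKM in shERO1A and 3.73 ± 0.226 FPKM in shNC (limma adjusted p = 0.00489). Without KD3, 3 genes were higher and 7 lower, while over all 10296 genes tested the calls rose from 976 to 1521 higher and from 847 to 1332 lower.

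In the stomach of mice, Slfn4 depends on the hedgehog factor Gli1, so hedgehog genes were read beside it. Of 10 with a row, 7 were tested, of which 2 were higher and 2 lower (28.6% each way, beside 9.48% and 8.23% of all genes tested). Gli1 itself and Ptch1 had a row, and neither was among the genes called. Genes averaging under 1 FPKM were not tested. The levels of Gli1 and Ptch1 are not reported here, so no lack of change is read from this. The ligand gene Ihh and the signal transducer Smo were 1.52-fold and 1.32-fold higher (limma adjusted p = 0.00773 and 0.00248). Hhip, a target gene that encodes a hedgehog-binding inhibitor, averaged 1.01 ± 0.162 FPKM in shERO1A and 1.90 ± 0.0860 FPKM in shNC (limma adjusted p = 0.00418), and the ligand gene Dhh was at 0.813 of shNC (limma adjusted p = 0.0218), a call lost without KD1 or any 1 shNC library.

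Genes of the processes in which Schlafen proteins act were counted next. Of 28 tested genes of transfer RNA cleavage and stalled ribosomes, 2 were lower and 0 were higher, beside 8.23% and 9.48% of all genes. At an unadjusted limma p under 0.05, 3 were higher, and with voom 2 were called higher. The falls were Tsen54, a subunit of the splicing endonuclease for transfer RNA, at 0.812 of shNC (limma adjusted p = 0.0417), and the ribosome-associated GTPase gene Gtpbp1 at 0.873 (limma adjusted p = 0.0241). Both calls were lost without KD2 or any 1 shNC library and that of Tsen54 also without KD1. Without KD3 2 genes of the list were higher and 3 lower, beside 1521 and 1332 of all 10296 genes tested. Of 17 genes of cyclin D and entry into the cell cycle, the step at which Slfn1 acts in thymocytes, 3 were higher and 1 lower (17.6% and 5.88%, beside 9.48% and 8.23% of all genes). Ccne1, cyclin E1, averaged 19.6 ± 2.33 FPKM in shERO1A and 10.8 ± 0.355 FPKM in shNC (limma adjusted p = 0.000549), and Cdkn1b and E2f1 were 1.26-fold and 1.24-fold higher. E2f2 was at 0.756 of shNC (limma adjusted p = 0.0373), a call lost without KD1, KD2, NC1 or NC3. Without KD3, 4 genes of this list were higher and 3 lower, beside the same 1521 and 1332 over all genes.

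The genes most like each member were found by Euclidean distance over the 6 libraries, in log2(FPKM + 1) minus the shNC mean, among tested genes with a regular symbol. For Slfn4 they were Itgb4, an integrin chain, at a distance of 0.331, Sprr2h, a cornified envelope gene, at 0.398, and Muc5ac, a gel-forming mucin, at 0.453. Itgb4 stood at 6.78, 6.08 and 5.05 FPKM in KD1, KD2 and KD3, against 18.5, 17.7 and 17.8 FPKM in NC1, NC2 and NC3. The rule picks genes by likeness over these same libraries, so a like place of KD3 follows from it and is not a result. For Slfn8 they were Plcg1 at 0.0590, Nt5c2 at 0.0776 and Ktn1 at 0.0842. For Slfn2 they were Eif4ebp1 at 0.0426, Prim2 at 0.0527 and Cdc42 at 0.0565, and for Slfn9 they were Mib1 at 0.0360, Trim21 at 0.0435 and Cdc37l1 at 0.0509.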

How the data were processed

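RNA of 3 shERO1A and 3 shNC libraries was analysed from 1 deposited table. The submitters' processing notes name HISAT2 2.1.0, HTSeq 0.11.2 and mm39. Annotation, read length and strand setting are not given in the sources used. The deposited expression columns were identified as FPKM from their values. The deposited base means per group are a signal; per the file headers they were made by the authors with DESeq2, and the values are counts over size factors. Further columns by the authors (a ratio, its log2, a p-value and a q-value), per the file headers, gave no result here. Columns of the knockdown group (KD1 to KD3) match its name but no single title, so libraries were not paired.

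Reads were recovered from FPKM and both base means, and all of them (100%, 97302 values) lay less than 0.01 from a whole read. The 10296 genes averaging 1 FPKM or more were fitted as log2(FPKM + 1) in limma 3.58.1 (R 4.3.3; trended variance), using Benjamini-Hochberg adjustment over all of them; recovery and fit were tested on simulated data. The members, lists and rules were chosen with earlier results of these data known. The genes named are the members, Ero1a, up to 3 called genes in each direction with the largest change per list, Irf1, Irf7, Irf9 and Stat2, the 3 genes most like each tested member, and markers; Nle1 was added as the nearest tested neighbour on 1 side, after its values were seen. A few genes that these rules name are not reported here. Alternatives were a pseudocount of 0.1, no filter, a filter of 1 RPM, median centring, voom and leaving out each library. Promoters are from RefSeq on GRCm38.p6 and transcripts from GENCODE M21, another build than that of the table, so no coordinates were combined.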

Additional observations from a re-analysis of the deposited data

How the results depend on the processing

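Over all genes tested, 482 to 1521 were called higher and 460 to 1332 lower when 1 library was left out, against 976 and 847 with all; the largest counts were without KD3 and the smallest without a shNC library. Leaving out 1 library gave 0 to 2 higher and 1 to 4 lower interferon receptors and factors, 19 to 31 higher and 1 to 5 lower interferon-stimulated genes, 0 to 3 higher and 4 to 7 lower Toll-like receptor and NF-kB genes, 0 to 2 higher and 0 to 3 lower genes of transfer RNA and stalled ribosomes, 2 higher and 1 to 2 lower hedgehog genes, 3 to 4 higher and 0 to 3 lower cyclin D and cell cycle genes, and 1 higher and 0 to 1 lower neighbours. With voom on recovered reads, chosen after the data were seen, 2 interferon receptors and factors and 2 genes of transfer RNA and stalled ribosomes were higher, 1 gene of transfer RNA and stalled ribosomes was lower and 2 cyclin D and cell cycle genes were lower. Without a filter, 1 interferon-stimulated gene, 1 gene of transfer RNA and stalled ribosomes and 0 cyclin D and cell cycle genes were lower. The log2 difference of Slfn4 was -1.99 with a pseudocount of 0.1 and -2.10 with voom, and -1.51 to -1.17 when 1 library was left out. Leaving out 1 library gave 0.24 to 0.38 for Slfn8, -0.11 to 0.03 for Slfn2 and -0.05 to 0.04 for Slfn9. No paired analysis was possible because the columns of shERO1A carry no replicate number that matches a title. The planned edgeR and DESeq2 fits of recovered reads were not run; voom took their place. Slfn1 and Slfn5 had few reads, and their differences were not tested.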
